A study of Mus musculus with 2 samples.

Results

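The Wnt pathway genes of UVB-induced mouse skin tumours are described here: the ligands with the proteins that secrete them, the receptors, the secreted antagonists, the intracellular signal transducers, and the feedback genes and targets. Genes were taken by name from the non-control probes of the arrays: every Wnt, Fzd, Sfrp, Dkk and Rspo gene with a numbered symbol, plus 21 single genes of the pathway. This gave 62 genes on 101 probes, of 37070 gene names on 56605 probes in all. They comprised 25 ligand and secretion genes, 12 receptor genes, 10 secreted antagonist genes, 6 signal transducer genes and 9 feedback and target genes.

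Total RNA came from 1 skin tumour sample of male P2RY6-/- mice and 1 of male P2RY6+/+ (wild-type) mice, each on 1 single-colour array, called the KO-labelled and the WT-labelled array. The mice were 2 months old when UVB irradiation of the shaved back began at 180 mJ/cm2. That dose was given for 10 weeks, then raised by 10 mJ/cm2 a week to 300 mJ/cm2 at week 22 and held there to week 40. How many tumours or mice were pooled, the strain background and the part of P2ry6 deleted are not stated in the sources used here. No unirradiated skin was analysed here.

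Wnt proteins are secreted, lipid-modified signals that Porcn acylates and Wls carries to the cell surface. A Wnt binds a Frizzled receptor together with the co-receptor Lrp5 or Lrp6, which stops the complex of Axin and Apc from sending beta-catenin (Ctnnb1) to degradation, so that beta-catenin can act with Tcf and Lef factors on target genes. In skin this pathway is known for starting and renewing hair follicles and for maintaining epidermal stem cells, and several targets, among them Axin2, Notum, Nkd1, Rnf43 and Znrf3, feed back to dampen it.

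With 1 array per genotype no test was possible and no p-value is given. A gene was measured where at least 1 of its probes was well above background on both arrays, by the scanner software's own mark. Its level is the log2 of the processed signal set against the 75th percentile of that array (signals of 327 on the KO-labelled and 347 on the WT-labelled array), averaged over its measured probes. A difference is the KO-labelled minus the WT-labelled level, and 2-fold means a difference of at least 1 log2 unit. The technical error of a difference had an SD of 0.12 log2 units between replicate spots of a probe (293 probes) and of 0.38 between probes of one gene (6772 genes; 0.29 over the 18 Wnt pathway genes with several measured probes). Differences below about these sizes cannot be told from technical error, and how far 2 tumours of one genotype differ is unknown.

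The labels could not be checked at P2ry6 itself, whose 2 probes read 835 and 318 processed signal units on the KO-labelled array, against 364 and 137 on the WT-labelled array. This is 2.44-fold higher on the array labelled as the knockout, so every direction below rests on the array labels alone. A probe outside the deleted part would check nothing. The tissue showed its epithelial markers: all 7 basal keratinocyte markers were measured on both arrays, with summed signals of 447893 on the KO-labelled and 347539 on the WT-labelled array. All 7 dermal fibroblast markers were measured as well, with summed signals of 24331 on the KO-labelled and 25750 on the WT-labelled array. Of the basal keratinocyte markers 1 (Krt5) passed 2-fold upwards and 0 downwards, with 5 above 0 and 2 below. Krt5 read 171998 on the KO-labelled and 57660 on the WT-labelled array, a difference of 1.66. The median of these markers was 0.05. Of the dermal fibroblast markers 1 (Dpt, a difference of 1.32) passed 2-fold upwards and 0 downwards, with 4 above 0 and 3 below. Markers of other cell types differed as well, in both directions. On the KO-labelled array 4 of 7 smooth muscle and pericyte markers lay at least 2-fold higher (summed signal 16491, against 6324 on the WT-labelled array), as did 3 of 6 measured macrophage markers (3045, against 1752 on the WT-labelled array). The macrophage markers were not uniform: Cd68 differed by 0.05. Cd163 was above background on the WT-labelled array alone, at least 1.66-fold lower on the KO-labelled array. All 6 measured suprabasal keratinocyte markers lay below 0, 2 of them at least 2-fold lower (270836 on the KO-labelled, 550389 on the WT-labelled array). Each of the 7 markers of the sebaceous gland lay at least 2-fold lower on the KO-labelled array (summed signal 16750, against 102427 on the WT-labelled array). Hair follicle and dermal papilla markers were mixed: of 8 measured, 4 lay at least 2-fold lower and 1 (Trps1, 2.62-fold) higher. Of the 8, 6 lay below 0 and 2 above, with a median of −1.05. Their summed signal was 4527 on the KO-labelled and 4664 on the WT-labelled array. The 3 measured melanocyte markers were all at least 2-fold lower, and Shh, which hair follicle matrix cells make, was not well above background on either array. Fewer cells of a type and less RNA per cell cannot be told apart in such whole-tumour samples.

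The 60-base probes of the ligand genes that were at least 2-fold apart are shown first, since each difference below is what these oligonucleotides bound. Coordinates are those of the array annotation on mm9, and exons and untranslated regions of that build were not annotated here. Capitals mark a run of 5 bases that the Wnt3 and Wnt3a probes share, and they share no longer one. Between probes of any 2 different Wnt genes, the longest shared run was 10 bases over 317 pairs.
Wnt3, chr11:103677409-103677468, plus strand: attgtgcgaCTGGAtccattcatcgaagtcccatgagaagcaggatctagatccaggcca
Wnt3a, chr11:59061659-59061718, minus strand: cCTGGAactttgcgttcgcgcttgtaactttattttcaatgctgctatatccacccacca
Wnt6, chr1:74831461-74831520, plus strand: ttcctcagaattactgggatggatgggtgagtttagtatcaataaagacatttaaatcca
Wnt5b, chr6:119383012-119383071, minus strand: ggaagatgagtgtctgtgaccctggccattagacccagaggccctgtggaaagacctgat
Wnt5b, chr6:119382550-119382609, minus strand: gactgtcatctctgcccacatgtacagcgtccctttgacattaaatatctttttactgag
Wnt7a, chr6:91314080-91314139, minus strand: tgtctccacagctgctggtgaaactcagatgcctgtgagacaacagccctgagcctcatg
Wnt7a, chr6:91313975-91314031, minus strand: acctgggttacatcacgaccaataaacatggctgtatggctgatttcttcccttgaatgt

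Of the 62 genes, 45 were measured on both arrays, 1 was above background on the KO-labelled array alone, 5 on the WT-labelled array alone and 11 on neither. Among the 45 measured genes Wnt6, Wnt5b and Lef1 (3) passed 2-fold upwards on the KO-labelled array, Wnt3, Wnt3a and Sfrp2 (3) downwards, and 39 did not. Of all 37070 gene names 19754 were measured on both arrays, and of these 4.8% passed 2-fold upwards and 5.04% downwards. In either direction 13.3% of the Wnt pathway genes passed it, against 9.84% of all genes. The median difference of the 45 was 0.26, against −0.06 over all genes, with 30 above 0 and 15 below. That is 66.7% above 0, against 45.1% of all measured genes. Scaled on 8 spike-in control probes instead, each array difference lay 0.46 lower. On that scale 1.60% of all genes passed 2-fold upwards and 15.8% downwards, so that 9.24% of the genes past 2-fold were higher, against 48.8% on the reported scale, and the Wnt pathway genes had 1 higher, 6 lower and a median of −0.20. Since that scale moves every gene alike, the distance of 0.32 between their median and that of all genes is the same on both by construction. The distance was 0.16 under normexp correction, 0.25 under quantile normalization, 0.22 under loess normalization and 0.09 with no filter on dim probes.

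**Figure D1:**
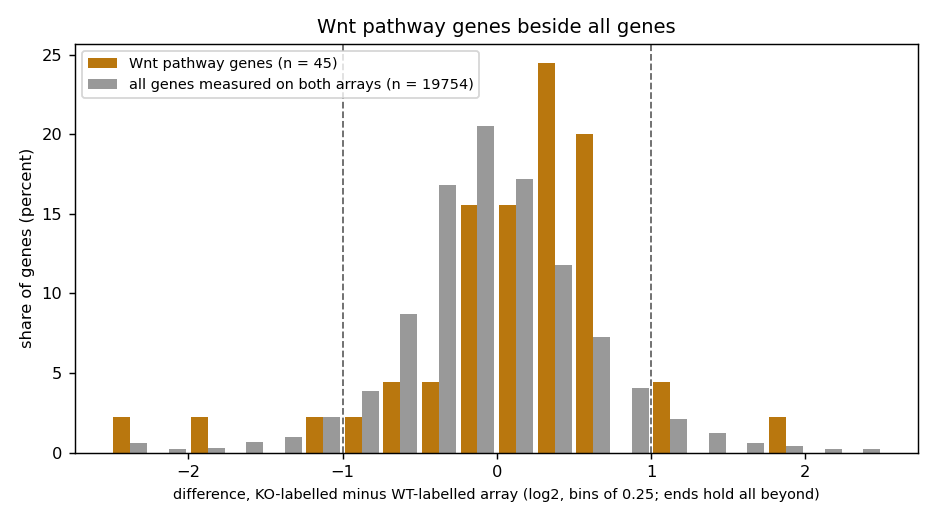
Share of genes (percent) by difference between the arrays (log2, KO-labelled minus WT-labelled, bins of 0.25), for the 45 measured Wnt pathway genes (left bar of each pair) and all 19754 measured genes (right bar). Dashed lines mark 2-fold. The bin from 0.25 to 0.5 holds 11 Wnt pathway genes (24.4%) against 11.8% of all genes, and the 2 Wnt ligand genes Wnt3 and Wnt3a lie far to the left.

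Ligand genes differed in both directions. Of 16 measured ligand and secretion genes 2 passed 2-fold upwards and 2 downwards, and 8 lay above 0 and 8 below. That is 12.5% each way, resting on 2 genes each, against 4.8% upwards and 5.04% downwards of all measured genes. Wnt3, a canonical ligand that acts through beta-catenin, read 63.7 processed signal units on the KO-labelled array and 324 on the WT-labelled array. Its difference was −2.26, or 4.80-fold lower. Wnt3a, its closest relative and a standard activator of beta-catenin signalling, read 116 on the KO-labelled array and 473 on the WT-labelled array, a difference of −1.94 or 3.84-fold lower. Each rests on 1 probe, well above background on both arrays. Under normexp correction both differences shrank to −1.48, and a stricter filter on dim probes left Wnt3 out. Both genes are known from the hair follicle. Of its 8 measured markers 6 lay below 0 and 2 above, with a median of −1.05. The part of hair follicle cells in the lower Wnt3 and Wnt3a signals was not tested.

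Wnt7a, a ligand known from limb patterning, was detected on the WT-labelled array alone. Its probes read 4.50 and 13.7 on the KO-labelled array, against 78.4 and 176 on the WT-labelled array. Because the first pair of readings is not well above background, the fold is a bound: at least 6.36-fold lower on the KO-labelled array, set against that array's lowest signal well above background or the probe's own, whichever is higher. Under normexp background correction the bound was 2.30-fold.

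In the other direction, Wnt6, a ligand of embryonic ectoderm and epidermis, read 509 on the KO-labelled array and 151 on the WT-labelled array. The difference was 1.84 or 3.58-fold higher, from 1 probe. Wnt5b, which signals mainly without beta-catenin, had 2 probes with similar differences: they read 84.4 and 379 on the KO-labelled array, against 45.8 and 181 on the WT-labelled array. Its difference was 1.06 ± 0.13 (SD, n = 2 probes), or 2.08-fold higher, and it became 0.69 under normexp correction and 0.60 on the spike-in scale. Its close relative Wnt5a, the best known ligand of beta-catenin-independent signalling, did not go with it: the 2 measured probes read 357 and 1081 on the KO-labelled and 469 and 1462 on the WT-labelled array. Wnt5a differed by −0.33 ± 0.03 (SD, n = 2 probes). Another Wnt5a probe was above background on the WT-labelled array alone (19.4 on the KO-labelled array, 47.9 on the WT-labelled array).

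The remaining ligand genes stayed under 2-fold. Wnt4, a ligand made in epidermis, read 4177 on the KO-labelled array and 8377 on the WT-labelled array, a difference of −0.92 that reached −1.38 on the spike-in scale. Wnt7b, a ligand of skin and its follicles, differed by 0.74 ± 0.50 (SD, n = 2 probes). Its probes read 915 and 102 on the KO-labelled array, against 454 and 82.8 on the WT-labelled array, so that they gave 1.097 and 0.39. Wnt11 (0.55 ± 0.06, SD, n = 2 probes), Wnt10b (0.54), Wnt9a (0.31) and Wnt2 (0.29) lay above 0. Wnt1 (−0.12) and Wnt10a (−0.16), a ligand needed for teeth and hair, lay within 0.2 of 0.

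Wnt10a signal was far above background on both arrays, at 7018 on the KO-labelled and 8293 on the WT-labelled array. Wnt16 was above background on the WT-labelled array alone (33.6, against 4.12 on the KO-labelled array; at least 1.82-fold lower there). Wnt2b, Wnt8a, Wnt8b and Wnt9b were not well above background on either array.

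The 2 secretion genes were well above background throughout. Porcn, the acyltransferase, read 3747 on the KO-labelled array and 2749 on the WT-labelled array, a difference of 0.53 from 1 probe. Wls, the carrier, read 1537 on the KO-labelled and 1637 on the WT-labelled array as the geometric mean of 2 probes, a difference of −0.01 ± 0.11 (SD, n = 2 probes) with the probes on different sides of 0. The R-spondins, which strengthen Wnt signals by removing Rnf43 and Znrf3 from the cell surface, were faint. Rspo1 read 64.6 on the KO-labelled and 74.4 on the WT-labelled array (difference −0.12). Rspo2 was above background on the WT-labelled array alone through 1 of its 2 probes (35.8, against 3.83 on the KO-labelled array; at least 1.94-fold lower there). Rspo3 and Rspo4 were not well above background on either array.

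Ligand genes that neighbour each other are given side by side. Wnt6 and Wnt10a probes lie 19113 bases apart on chromosome 1 (mm9), and the genes differed by 1.84 and −0.16. Wnt10a is within the technical error of 0 and turned to 0.08 under quantile normalization. Wnt3a lies 85235 bases from the Wnt9a probe on chromosome 11, and these genes differed by −1.94 and 0.31, with Wnt9a at −0.15 on the spike-in scale. Wnt1 and Wnt10b, 21245 bases apart on chromosome 15, differed by −0.12 and 0.54, the first within the technical error. The probe of Wnt9b, 88468 bases from that of Wnt3, was not well above background on either array (4.83 on the KO-labelled, 9.90 on the WT-labelled array).

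**Figure D2:**
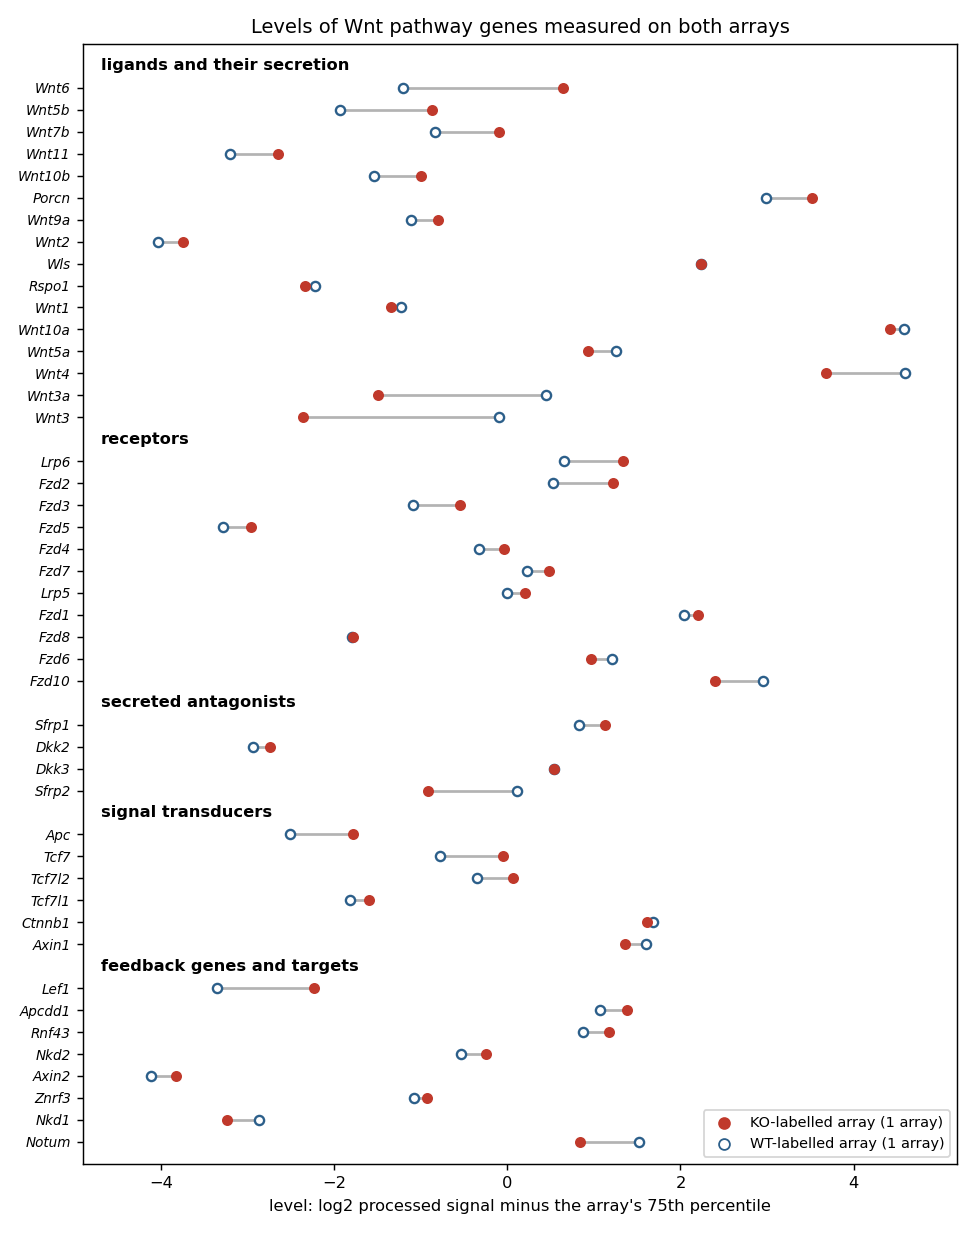
Level of each of the 45 measured Wnt pathway genes (log2 signal relative to the 75th percentile of its array, horizontal axis) on the KO-labelled array (filled) and the WT-labelled array (open), grouped by role and ordered by difference; a grey line joins the pair. Levels of different genes come from different probes and are not comparable with each other. Wnt3 and Wnt3a have the longest lines with the filled point on the left, Wnt6 the longest with it on the right.

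**Figure D3:**
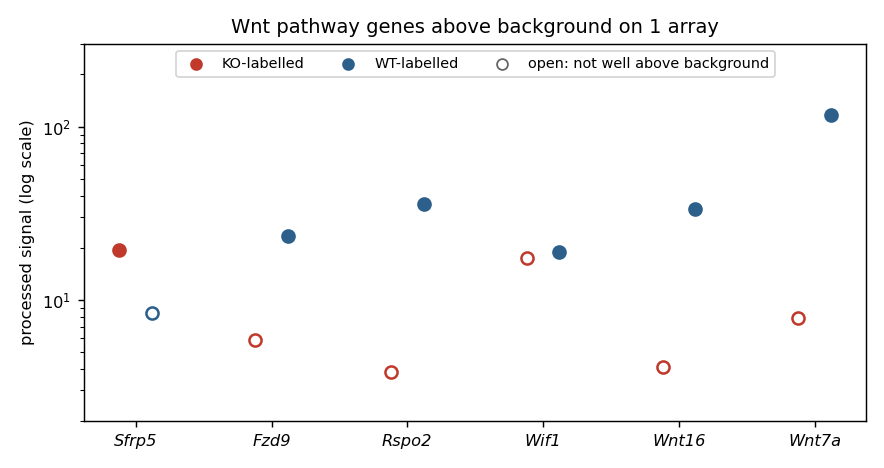
Processed signal (log scale) of the 6 genes above background on 1 array, KO-labelled left of WT-labelled in each pair; open circles are not well above background. Signals of Wnt7a and Rspo2 are geometric means over the probes above background on the brighter array (2 and 1). Wnt7a has the highest bound, at least 6.36-fold lower on the KO-labelled array, and the Wif1 pair nearly coincides.

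Of 11 measured receptor genes 0 passed 2-fold, a count that says little beside the 9.84% of all genes that passed it. On the spike-in scale Fzd10 passed it downwards. The receptor genes had 9 above 0 and 2 below and a median of 0.26, which became −0.20 on the spike-in scale, where 3 lay above 0. Of all measured genes 45.1% lay above 0 on the reported scale. Lrp6, the co-receptor that is phosphorylated when Wnt binds, and Fzd2, a Frizzled, shared the greatest difference on the reported scale, at 0.69 each. The 2 Lrp6 probes read 186 and 3653 on the KO-labelled array, against 106.7 and 2769 on the WT-labelled array. Both probes were brighter on the KO-labelled array, and the difference was 0.69 ± 0.29 (SD, n = 2 probes) or 1.61-fold. Lrp5, its relative, differed by 0.21 ± 0.16 (SD, n = 2 probes).

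Among the Frizzleds, the membrane receptors that bind Wnts, Fzd2 read 759 on the KO-labelled and 500 on the WT-labelled array (0.69) and Fzd3 read 224 on the KO-labelled and 163 on the WT-labelled array (0.54). At the other end Fzd10 read 1722 on the KO-labelled and 2689 on the WT-labelled array (−0.56, and −1.02 on the spike-in scale), and Fzd6, known for hair orientation, read 637 on the KO-labelled and 800 on the WT-labelled array (−0.25). Fzd1, Fzd4, Fzd5, Fzd7 and Fzd8 lay between 0.01 and 0.32. Of these Fzd5 had probes that disagreed, at 0.80 and −0.15 on faint signals of 38.6 and 45.6 on the KO-labelled array and 23.6 and 53.7 on the WT-labelled array. Fzd9 was above background on the WT-labelled array alone (23.3, against 5.88 on the KO-labelled array; at least 1.26-fold lower there).

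Of 10 secreted antagonist genes 4 were measured on both arrays, beside 19754 of all 37070 gene names. Of the 4 measured, 1 passed 2-fold downwards and 0 upwards. That is 25% downwards, resting on 1 gene, against 5.04% downwards and 4.8% upwards of all measured genes. Sfrp2, a secreted protein that binds Wnts and is made by fibroblasts, read 173 on the KO-labelled array and 374 on the WT-labelled array, a difference of −1.03 or 2.04-fold lower. It rests on 1 probe and became −0.85 under normexp correction, which is under 2-fold. The dermal fibroblast markers went both ways (4 above 0 and 3 below), with a median of 0.03 and a range of −0.50 to 1.32. The part of fibroblasts in the lower Sfrp2 signal was not tested. The probe lies at chr3:83577864-83577923 (mm9, plus strand) and is shown because it carries the one antagonist difference of that size.
Sfrp2: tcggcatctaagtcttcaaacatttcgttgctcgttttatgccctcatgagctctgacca

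Sfrp1, another Wnt-binding protein, read 712 on the KO-labelled and 617 on the WT-labelled array (0.29). Dkk2, which blocks Lrp5 and Lrp6, read 49.0 on the KO-labelled and 45.2 on the WT-labelled array (0.20). Dkk3, a divergent Dickkopf, differed by 0.01 ± 0.33 (SD, n = 3 probes), with the probes at −0.23, −0.13 and 0.39. Sfrp5 was above background on the KO-labelled array alone (19.4, against 8.43 on the WT-labelled array; at least 1.16-fold higher). Wif1, a Wnt-binding inhibitor, lay at the edge of detection, with 17.5 on the KO-labelled array and 19.0 on the WT-labelled array, and only the second was well above background. Dkk1, Dkk4, Frzb and Sfrp4 were not well above background on either array. Of the 6 genes detected on 1 array only, 1 (Wnt7a) had a bound of at least 2-fold, against 23.7% of the 2077 such genes in all.

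Of the 5 detected on the WT-labelled array alone 1 had such a bound, against 24.5% of 1082 genes, and of the 1 on the KO-labelled array alone 0, against 22.9% of 995.

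The 6 signal transducer genes were all measured, and 0 passed 2-fold, a count that says little beside the 9.84% of all measured genes. Their median was 0.32, with 4 above 0 and 2 below (45.1% of all measured genes lay above 0), and −0.14 on the spike-in scale. Ctnnb1, which encodes beta-catenin, differed by −0.06 ± 0.40 (SD, n = 3 probes). Its probes read 2728, 1434 and 258 on the KO-labelled array, against 4157, 1293 and 255 on the WT-labelled array, so that the probes gave −0.52, 0.23 and 0.10. Axin1, the scaffold of the destruction complex, differed by −0.25 ± 0.13 (SD, n = 2 probes). Apc, its partner and a tumour suppressor of the gut, differed by 0.72 ± 0.39 (SD, n = 2 probes), from 78.6 and 114 on the KO-labelled array and 61.1 and 60.7 on the WT-labelled array.

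All 3 Tcf genes were above 0. Tcf7 read 313 and 315 with 2 probes on the KO-labelled array, against 187 and 218 on the WT-labelled array. It differed by 0.72 ± 0.15 (SD, n = 2 probes). Its remaining probe was above background on the KO-labelled array alone (41.5, against 18.9 on the WT-labelled array). Tcf7 is also known as a gene of T cells. Of 4 measured T cell markers 1 (Cd2) was at least 2-fold lower and none was 2-fold higher. Cd8a was above background on the KO-labelled array alone, at least 1.29-fold higher there. The part of T cells in the Tcf7 difference was not tested. Tcf7l2 differed by 0.42 ± 0.21 (SD, n = 4 probes), with all 4 probes between 0.17 and 0.69. Tcf7l1, which represses targets in follicle stem cells, differed by 0.22. On the spike-in scale only Tcf7 and Apc of the 6 transducers stayed above 0.

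Feedback genes and targets did not share one direction. Of 8 measured genes 1 (12.5%) passed 2-fold upwards and 0 downwards, against 4.8% and 5.04% of all measured genes. The 8 genes had a median of 0.29, with 6 above 0 and 2 below (45.1% of all measured genes lay above 0), and a median of −0.18 on the spike-in scale. Lef1, a partner of beta-catenin that is also its target and a gene of the hair matrix, read 69.7 on the KO-labelled array and 33.8 on the WT-labelled array. The difference was 1.13 or 2.19-fold higher from 1 of its 3 probes, and it became 0.54 under normexp correction and 0.67 on the spike-in scale. The other 2 probes, which lie upstream in the gene, read 3.47 and 4.27 on the KO-labelled array and 3.52 and 4.53 on the WT-labelled array, none well above background. Among the hair follicle markers Trps1 (1.39) and Hoxc13 (0.72) lay above 0 like Lef1 and the other 6 below, with a median of −1.05. Their nearly equal summed signals came mostly from Crabp1 (2512 on the KO-labelled, 2796 on the WT-labelled array) and Trps1 (1418 and 575). The part of hair follicle cells in the Lef1 difference was not tested. The probe that carries the signal lies at chr3:130926200-130926259 (mm9, plus strand).
Lef1: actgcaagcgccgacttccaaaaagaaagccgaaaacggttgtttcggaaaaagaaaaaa

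Axin2, the most widely used target of beta-catenin, was barely above background. Its measured probe read 22.9 on the KO-labelled array and 19.97 on the WT-labelled array, a difference of 0.28. Its other probe was not well above background on either (17.4 on the KO-labelled, 14.7 on the WT-labelled array). Notum, an enzyme that removes the lipid from Wnt and so inactivates it, read 584 on the KO-labelled array and 995 on the WT-labelled array, a difference of −0.68 that reached −1.15 on the spike-in scale. Its other probe was above background on the WT-labelled array alone (7.39 on the KO-labelled, 30.2 on the WT-labelled array). Nkd1, an intracellular inhibitor, read 34.6 on the KO-labelled and 47.5 on the WT-labelled array (−0.37).

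The others lay slightly above 0. Nkd2, a relative of Nkd1, differed by 0.29 ± 0.07 (SD, n = 2 probes) and Apcdd1, a membrane inhibitor of Wnt known from human hair loss, by 0.31 ± 0.22 (SD, n = 3 probes). Rnf43 (0.30 from 1 probe) and Znrf3 (0.15 ± 0.27, SD, n = 3 probes, at −0.15, 0.27 and 0.33) are the ubiquitin ligases that remove Frizzled from the surface. Sp5, a transcription factor that directly answers beta-catenin, was not well above background on either array (3.91 on the KO-labelled, 3.83 on the WT-labelled array).

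**Figure D4:**
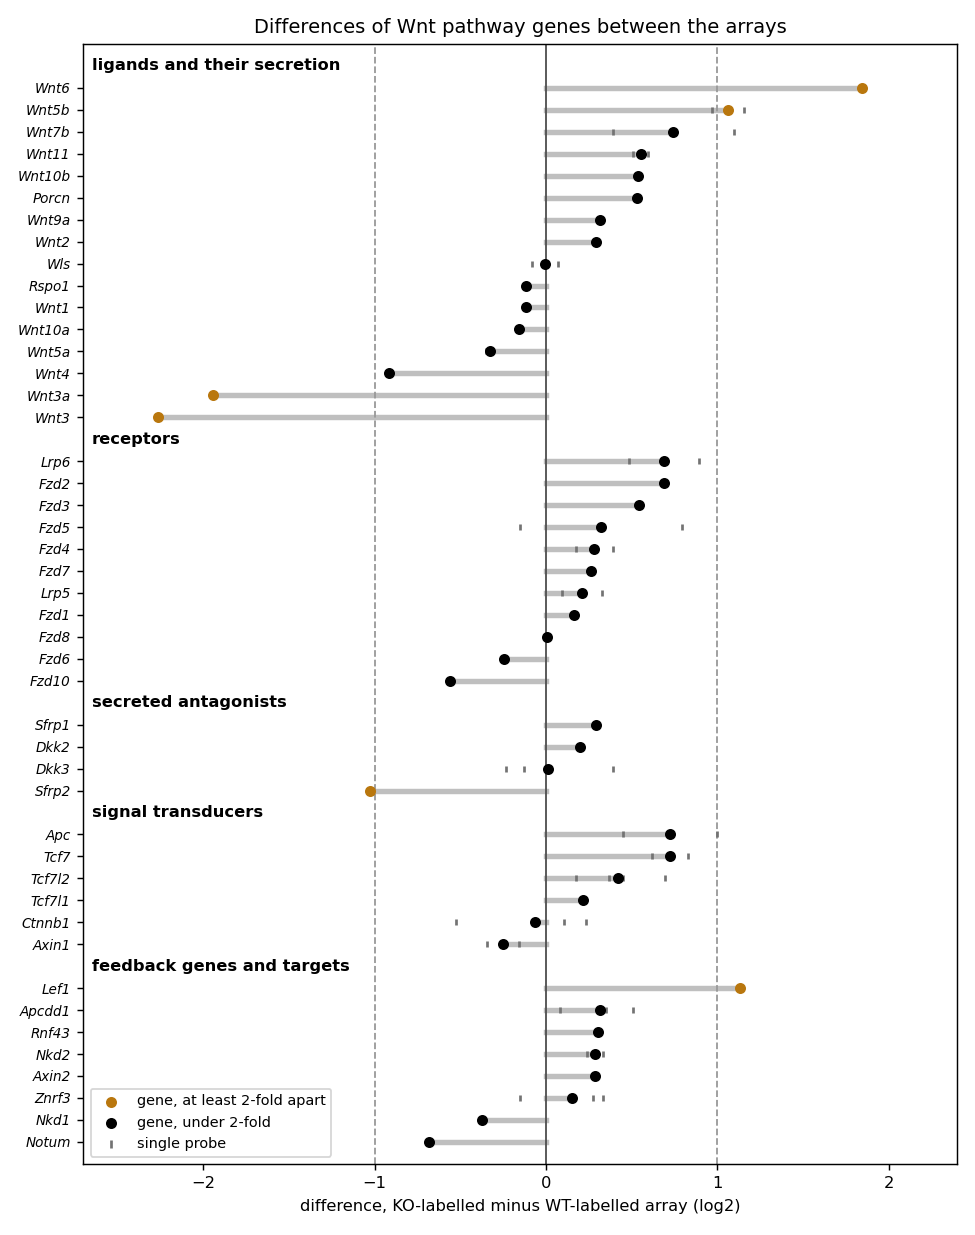
Difference of each of the 45 measured Wnt pathway genes (log2, KO-labelled minus WT-labelled array, horizontal axis), by role; large points are genes, ticks single probes, dashed lines 2-fold. Wnt6, Wnt5b and Lef1 lie beyond the right line and Wnt3, Wnt3a and Sfrp2 beyond the left one, while all receptor and transducer genes lie between the lines.

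Promoters were searched for the core site of Tcf and Lef factors, as the letters CTTTGAA or CTTTGAT on either strand, in the 300 bases from 250 before to 50 after each start site (RefSeq, GRCm38.p6; 40 of the 62 genes matched by symbol). The site was found for 4 of these 40 genes (10%), namely Wnt11, Wnt5b, Dkk1 and Sp5, against 9.88% of all 27025 genes with a promoter sequence. Of the 6 genes at least 2-fold apart, Wnt5b alone held it, in 1 of its 3 promoter entries, at chr6:119449337-119449636 on the minus strand, where it starts 71 bases before the start site. That promoter is shown with the site in capitals. A match is a description of letters and not evidence of binding.
Wnt5b promoter: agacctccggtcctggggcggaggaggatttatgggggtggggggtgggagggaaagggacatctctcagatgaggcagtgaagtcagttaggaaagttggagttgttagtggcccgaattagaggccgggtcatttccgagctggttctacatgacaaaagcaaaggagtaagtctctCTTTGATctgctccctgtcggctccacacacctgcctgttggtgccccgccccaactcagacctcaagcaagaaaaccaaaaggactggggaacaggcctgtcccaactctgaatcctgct

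The wider pathway, a list of 57 further genes on the array, had a median that depended on the scale. Of its 50 measured genes 3 passed 2-fold upwards and 3 downwards (12% in all, against 9.84% of all measured genes). Of the 50, 23 lay above 0 and 27 below, with a median of −0.04. The median became 0.06 under quantile normalization and −0.50 on the spike-in scale. There 8 of the 50 passed 2-fold downwards, beside 15.8% of all measured genes. Lgr6, an R-spondin receptor that marks stem cells of the upper follicle, read 772 on the KO-labelled array and 162 on the WT-labelled array, 5.07-fold higher. Its relative Lgr5, which marks cycling follicle stem cells, read 93.9 on the KO-labelled and 49.6 on the WT-labelled array (2.01-fold higher, a difference of 1.01), whereas Lgr4 differed by −0.01. Lgr5 sits at the threshold and kept 2-fold under 2 of the 8 alternatives that gave it a value, with 0.99 under the median scale, 0.93 under quantile normalization, 0.57 under normexp correction and 0.54 on the spike-in scale. Gpc3, a glypican that binds Wnts, read 575 on the KO-labelled and 220 on the WT-labelled array (2.77-fold higher).

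The lower genes of that list were another receptor and 2 known targets. Tnfrsf19, a target of beta-catenin, differed by −1.53 ± 0.11 (SD, n = 2 probes). Ror2, the receptor through which Wnt5a acts without beta-catenin, read 77.9 on the KO-labelled and 201 on the WT-labelled array (2.43-fold lower). Ascl2, a stem cell transcription factor and target in the gut, read 243 on the KO-labelled and 574 on the WT-labelled array (2.23-fold lower). Ror2 came to −0.87 under normexp correction, and without a filter on dim probes Tnfrsf19 came to −0.97 and Ascl2 to −0.56. The general targets Ccnd1 (−0.87) and Myc (−0.50 ± 0.19, SD, n = 2 probes) stayed under 2-fold on the reported scale. On the spike-in scale each difference lay 0.46 lower, which takes Ccnd1 past 2-fold.

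**Figure D5:**
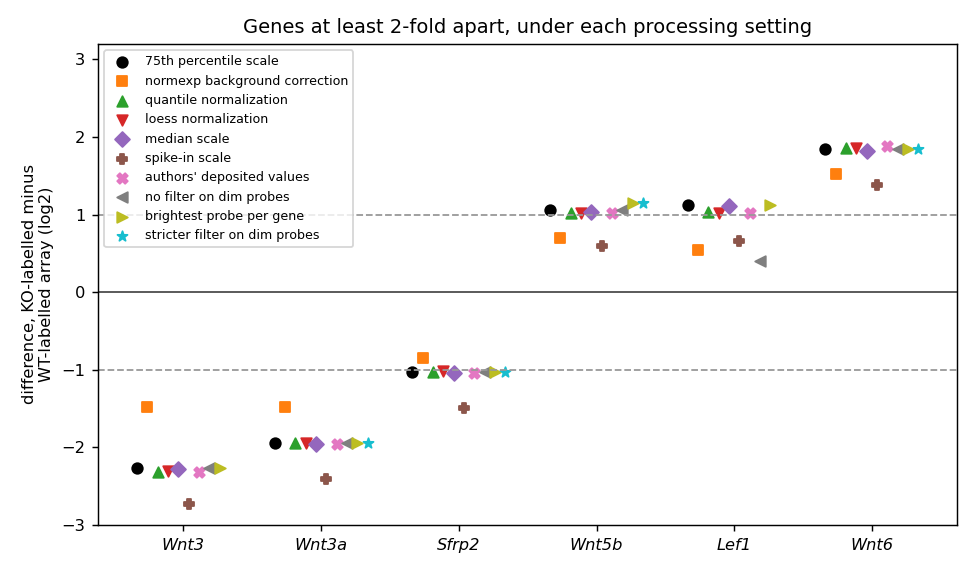
Difference (log2, KO-labelled minus WT-labelled array, vertical axis) of the 6 genes at least 2-fold apart under the reported scale (black) and up to 9 other processing settings; dashed lines mark 2-fold. No point changes sign. Wnt3, Wnt3a and Wnt6 stay beyond 2-fold wherever they have a value, while Sfrp2, Wnt5b and Lef1 come within it under 1, 2 and 3 settings.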

How the data were processed

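The authors extracted spot intensities with Agilent Feature Extraction 10.7.1.1, per the file headers and the submitters' processing notes, as background-subtracted, detrended processed signal with no normalization between arrays; both arrays lay on 1 slide in 1 scan. The deposited table of log2 values tracked the log2 processed signal at r = 0.9997 (KO-labelled) and 0.9999 (WT-labelled) over 56594 probes, with a median of 4.97 in each column; how it was normalized is not stated in these sources. Each array had 59305 non-control spots, of which 57.9% (KO-labelled) and 57.8% (WT-labelled) were well above background, and no saturated spot; flagged spots were left out, which removed 11 probes. Precision is limited by the number of arrays. Genes carry the array's own names: for 86 of the 101 Wnt pathway probes an accession in the RefSeq table gave the same symbol, and 15 had no accession there. A gene above background on 1 array has a bound in place of a fold. The gene summary was tested on simulated data. Alternatives were computed with limma 3.58.1 in R 4.3.3. The genes, lists, alternatives and the rule for named genes (every gene at least 2-fold apart or with such a bound, every gene whose probes differ in sign, and Axin2, Lef1, Sp5, Nkd1, Notum, Ctnnb1, Lrp6, Wls and Porcn; of the wider list, those at least 2-fold apart, with others named after their values were seen) were chosen with earlier results of these data known.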

Additional observations from a re-analysis of the deposited data

How the results depend on the processing

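The limits are 1 array per genotype, labels left unchecked by a P2ry6 signal that is higher on the KO-labelled array, and faint probes. Values are also set by the scale. Against the spike-in probes the Wnt pathway genes had 1 higher, 6 lower and a median of −0.20. By role, ligands then had 1 higher and a median of −0.32, receptors 1 lower and −0.20, antagonists −0.36, transducers −0.14, feedback genes 0 higher, 1 lower and −0.18, and the wider list 8 lower and −0.50. Under normexp correction with an offset of 50, 1 Wnt pathway gene was higher, with 1 ligand and 0 feedback genes higher and 0 antagonists lower. Without a filter on dim probes 8 of 62 Wnt pathway genes were lower, beside 5.71% of all 37070 genes. By role, 5 ligands, 1 receptor and 1 feedback gene were then lower, 1 antagonist and 0 feedback genes higher, and 1 of the wider list lower. Wnt7a, Wnt16, Rspo2, Fzd9 and Notum (lower) and Sfrp5 (higher) passed 2-fold there through probes not well above background on at least 1 array. Under the stricter filter 1 ligand was lower and 0 feedback genes were higher, because that filter leaves fewer genes (35 of 45), Wnt3 and Lef1 not among them. On the spike-in scale the changes follow from every difference lying 0.46 lower. Elsewhere the causes were not tested. Medians changed side of 0 for the ligands without a filter (−0.06), for the antagonists under the stricter filter (−0.18) and for the wider list under quantile (0.06) and loess normalization (0.04), the authors' values (0.06) and no filter (0.03). In the wider list Lgr5 lost 2-fold under 6 of 8 alternatives. Of 395 values of single genes under alternatives, 342 moved by less than the SD between probes, 53 by more, and 0 of the genes at least 2-fold apart changed sign. Over all 19754 measured genes, normexp correction left 368 higher and 575 lower (of 948 and 996) and the spike-in scale 317 and 3113. No filter gave 2216 higher and 2118 lower of 37070 genes (5.98% and 5.71%, against 4.8% and 5.04% with the filter). The stricter filter gave 536 higher and 718 lower of 15502 genes (3.46% and 4.63%). No paired analysis was possible because each genotype has 1 array.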
